A study of Oryza sativa Japonica Group with 12 samples.

Results

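The average effect of miR156 over-expression on transcript levels across an old and a young rice leaf was measured on 12 Affymetrix arrays, all 12 of the series. There were 6 arrays of each genotype: leaf 3 (L3, old) and leaf 6 (L6, young) of 3 over-expressing plants (OE) and of 3 wild-type plants (WT), so that the groups OE_L3, OE_L6, WT_L3 and WT_L6 held 3 arrays each. All plants were Oryza sativa, Japonica group, 45 days old and grown in hydroponics, and leaves were numbered on the main tiller in the order in which they emerged. The 3 OE plants were independent transgenic lines, Md15 (plant 1), Md43 (plant 2) and Mh9 (plant 3), which had been selected as seedlings on 50 mM hygromycin per the labels. The WT plants were not transgenic, and no transgenic line without extra miR156 was among the samples. A difference between OE and WT thus cannot be told apart from an effect of transformation or of selection. The labels give no promoter for the transgene, and each line was sampled as 1 plant, so a line and a plant cannot be told apart either.

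MiR156 is a small RNA that is abundant in juvenile plants and declines as the shoot ages. It pairs with a site in the transcripts of most SPL genes (SQUAMOSA PROMOTER BINDING PROTEIN-LIKE transcription factors) and lowers their RNA and protein. In rice, SPL genes act on tillering, panicle branching, grain shape and the timing of leaf initiation. The comparison asks which transcripts differ with genotype when both leaf ages are averaged, in contrast to those that differ in one leaf. MiR156 itself was not measured on this array. The labels report an RNA gel blot check of its level, whose values were not analysed here.

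The array reports 1 linear signal per probe set, a group of short probes for one transcript. Of 57381 probe sets, 187 are array controls and the other 57194 were tested. The platform annotation gives 1 gene for 39.2% of these (17905 genes), and 2459 of these genes have a symbol that is more than a LOC number. The genotype effect was the mean of the OE minus WT difference in L3 and that in L6 on the log2(signal + 16) scale. The added 16 makes folds of dim probe sets too small. A probe set is said to have changed, or to be called, where the adjusted p was under 0.05.

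The arrays had median signals of 50.8 to 56.5 and correlated at 0.945 to 0.994 within a group. Old leaves were less alike than young ones: the variance of a probe set within its group averaged 0.0767 in OE_L3 and 0.0360 in OE_L6, against 0.109 in WT_L3 and 0.0309 in WT_L6. On a score that puts the mean L3 of the other genotype at 0 and its mean L6 at 1, the OE_L3 arrays stood at 0.252, 0.207 and -0.217 and the WT_L3 arrays at 0.381, -0.273 and -0.253. Plant 1 of OE_L6 also stood apart in its controls, where the 3′ over 5′ signal of the spiked dap transcript had a log2 ratio of 5.35, against 3.20 to 3.70 on the other 11 arrays. Without that array 103 probe sets were called in place of 119, 68 higher and 35 lower. The leaf mesophyll markers, CAB2R (light-harvesting) and PORB, summed to 18961 to 19372 in OE_L3 and 18361 to 19922 in WT_L3. In L6 they summed to 11782 to 16953 in OE and 13499 to 17232 in WT. Root markers summed to 1935 to 2834 in OE_L3 and 2324 to 3073 in WT_L3. Their L6 sums were 489 to 896 in OE and 543 to 1128 in WT. Pollen and anther markers summed to 445 to 483 in OE_L3 and 434 to 448 in WT_L3. Their L6 sums were 444 to 469 in OE and 443 to 461 in WT. No such list held a call. Over all probe sets 0.208% were called, so 0 calls in lists of 3, 12 and 8 probe sets show little. At an unadjusted p under 0.05 in the genotype test, 1 mesophyll probe set was lower in OE. Higher at that p were 2 root probe sets and 1 pollen and anther probe set. In whole leaves, fewer cells of a type and less RNA per cell cannot be told apart.

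The genotype labels were checked on the array's reporter controls, probe sets for common vector and marker genes. Of 64 reporter probe sets, 2 separated OE from WT. The first had signals of 5616, 4167 and 2590 in OE_L3 and 3821, 3279 and 1775 in OE_L6, against 12.3 to 26.3 on the 6 WT arrays. The second had 2463, 2564 and 3627 in OE_L3 and 2288, 2015 and 2511 in OE_L6, against 32.6 to 63.6 in WT. The other 62 differed by -0.15 to 0.27 (log2), and none of them passed a signal of 93.2 on any array. The reporter signals thus separated the 12 arrays as their labels do. The ratio of the first to the second reporter was 2.28 and 1.67 in the leaves of Md15, 1.63 in both leaves of Md43, and 0.714 and 0.707 in those of Mh9. Mh9 thus stood apart from Md15 and Md43 in both leaves, while the leaves of Md15 differed more from each other than Md15 and Md43 did in L6.

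Few probe sets were called for the average genotype effect, and most of the larger differences among them were increases. In all, 119 of the 57194 probe sets were called (0.208%), 76 higher in OE (0.133%) and 43 lower (0.0752%). An unadjusted p under 0.05 was reached by 4983 (8.71%), and the median difference over all probe sets was -0.0011 (log2). Of the called probe sets, 36 were at least 2-fold higher and 7 at least 2-fold lower on the log2(signal + 16) scale. At least 8-fold higher were 7, and 0 were as much lower. The median difference of the called was 0.89 among the higher and -0.62 among the lower. All 4 group means were under 50 in 16 of the 76 higher and 3 of the 43 lower. The WT mean was under 50 in both leaves in 50 of the 76 higher, and the OE mean in 15 of the 43 lower. A gene is named for 48 of the 119 (45 genes), 21 of the higher and 27 of the lower, and the other 71 are unnamed here.

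The 2 leaves were compared within the called probe sets, which the average had chosen for a large difference on the same arrays, so that the counts below describe them and test nothing. The 2 leaf differences had the same sign in 115 of 119. The smaller was at least 0.5 of the larger in 92, 63 of the higher and 29 of the lower, a share chosen after the differences had been seen. The 3 OE arrays lay all above or all below the 3 WT arrays in both leaves in 110 of the called, against 1.42% of all probe sets. Of these 110, 73 were higher, against 0.736% of all, and 37 lower, against 0.685%. In 74, 55 higher and 19 lower, all 6 OE arrays lay beyond all 6 WT arrays whichever leaf they came from, against 0.409% of all. The test of the leaf difference itself called 6 probe sets (0.0105%), all of which were also called in the average, and 1465 (2.56%) had an unadjusted p under 0.05. An exact permutation of 3 OE against 3 WT plants cannot go below p = 0.1 for a single transcript. The calls thus rest on a normal model of the 12 arrays, with 8 residual degrees of freedom per probe set and 3.01 from a spread shared across probe sets. In that model the leaves of a plant had a correlation of -0.067, so they counted as slightly more than independent. With no block for the plant 108 were called. With the leaves of each plant averaged first, 49 were called (37 higher and 12 lower), 48 of them among the 119. Without WT plant 2 the count was 58, without WT plant 3 it was 66 and without WT plant 1 it was 78.

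**Figure D1:**
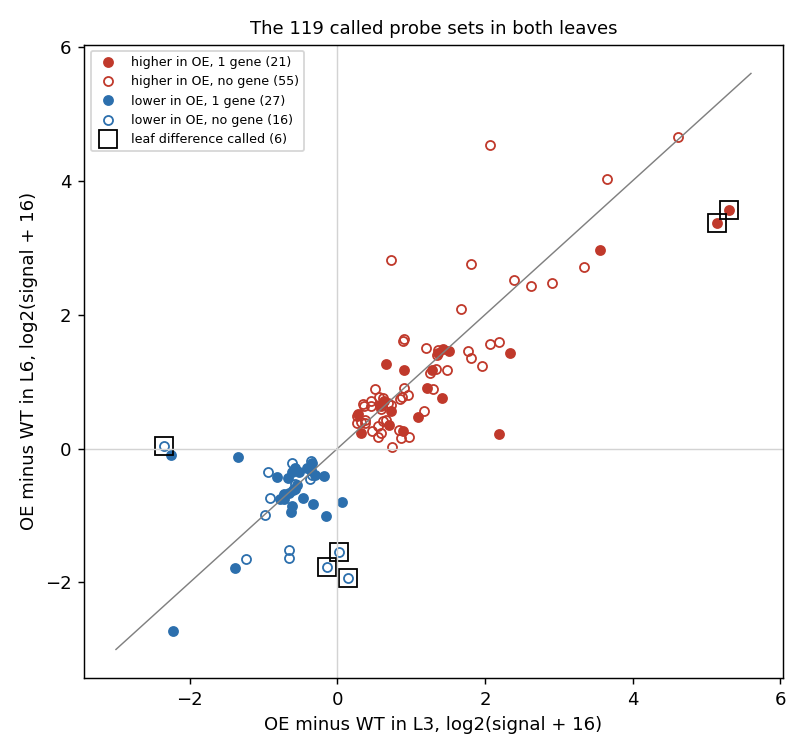
Difference OE minus WT in L3 (x axis) and in L6 (y axis), both on the log2(signal + 16) scale, for the 119 called probe sets. Red marks are higher and blue marks lower in OE, filled where 1 gene is named, and squares ring the 6 called for a leaf difference. Most points lie near the grey line of equal differences, 115 of 119 have the same sign in both leaves, and the points beyond 3 on both axes are all higher in OE.

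SPL genes with a miR156 site were lower in OE or did not pass the test. They are the family that miR156 pairs with, and 6 genes with 9 probe sets were measured: SPL2, SPL4, SPL7, SPL12, SPL14 and SPL16. Called lower were 2 probe sets, both of SPL4, and 0 were called higher. At an unadjusted p under 0.05 there were 5 lower and 0 higher, where 4.75% of all probe sets were lower and 3.97% higher. The median difference was -0.38 (log2), with 8 of 9 below 0, against -0.0011 and 50.5% below 0 over all probe sets. Over the probe sets with 1 gene these were 0.022 and 41.6%. Several of the 9 probe sets are of SPL4, so these counts are not of separate genes. By leaf the median was -0.13 in L3 and -0.63 in L6. The median of the average over the 9 probe sets is the value of a single one, of SPL7, whose arrays overlapped in both leaves. The list's median was -0.28 without the OE_L6 array of plant 1. The medians by leaf thus do not show that L6 gave most of the average in each gene. SPL genes without a site (SPL1, SPL6, SPL8, SPL9 and SPL15, 6 probe sets) had a median of -0.017 and 0 calls, with 1 at an unadjusted p under 0.05.

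The first SPL4 probe set had signals of 40.7, 49.1 and 47.5 in OE_L3 and 75.7, 70.8 and 81.8 in OE_L6, against 91.8, 86.9 and 80.5 in WT_L3 and 143, 133 and 126 in WT_L6. All OE arrays of a leaf lay below all WT arrays of that leaf, and the shift had nearly the same size in both (-0.73 in L3 and -0.70 in L6). The average was -0.72 (SE 0.06, adjusted p = 0.000195), or 1.64-fold lower. Another probe set of SPL4, whose type allows binding of related transcripts, had 183, 169 and 206 in OE_L3 and 206, 201 and 226 in OE_L6, against 241, 282 and 263 in WT_L3 and 361, 342 and 390 in WT_L6. Every OE array was below every WT array, with a difference of -0.60 (SE 0.07, adjusted p = 0.00358). Its call was lost with plant means (adjusted p = 0.125) and without OE plant 1, WT plant 2 or WT plant 3. The other 2 SPL4 probe sets did not agree in size. One differed by -0.22 (adjusted p = 0.389) and the other, with signals of 7.95 to 16.1, by 0.02 (adjusted p = 0.93).

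SPL12 came nearest to the threshold among the remaining genes. It had 245, 179 and 147 in OE_L3 and 337, 322 and 348 in OE_L6, against 285, 210 and 224 in WT_L3 and 585, 606 and 562 in WT_L6. The L6 arrays did not overlap and the L3 arrays did. The average was -0.55 (SE 0.11, adjusted p = 0.122). SPL14, also known as IDEAL PLANT ARCHITECTURE1 and studied for tiller number and panicle branching, had the lowest average, -0.79 (SE 0.36, adjusted p = 0.567). That average joined 0.06 in L3 with -1.65 in L6, where OE had 58.3, 67.5 and 69.5 and WT had 404, 364 and 86.0. The third WT_L6 array was thus far below the other two. SPL7 differed by -0.38 (adjusted p = 0.586), and 1 low OE_L6 array, of plant 1, at 68.0 against 167 and 184, lay apart from the other OE_L6 arrays. SPL2 differed by -0.27 (adjusted p = 0.699) and SPL16, a grain shape gene, by -0.18 (adjusted p = 0.666). In L6 the OE arrays of SPL12, SPL14 and SPL16 lay below all WT arrays, whereas SPL2 and SPL7 overlapped in both leaves. Among the genes without a site, SPL6 had -0.16 and -0.03, SPL9 -0.12, SPL15 -0.00008, SPL1 0.21 and SPL8 0.20, with adjusted p of 0.568 or more.

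**Figure D2:**
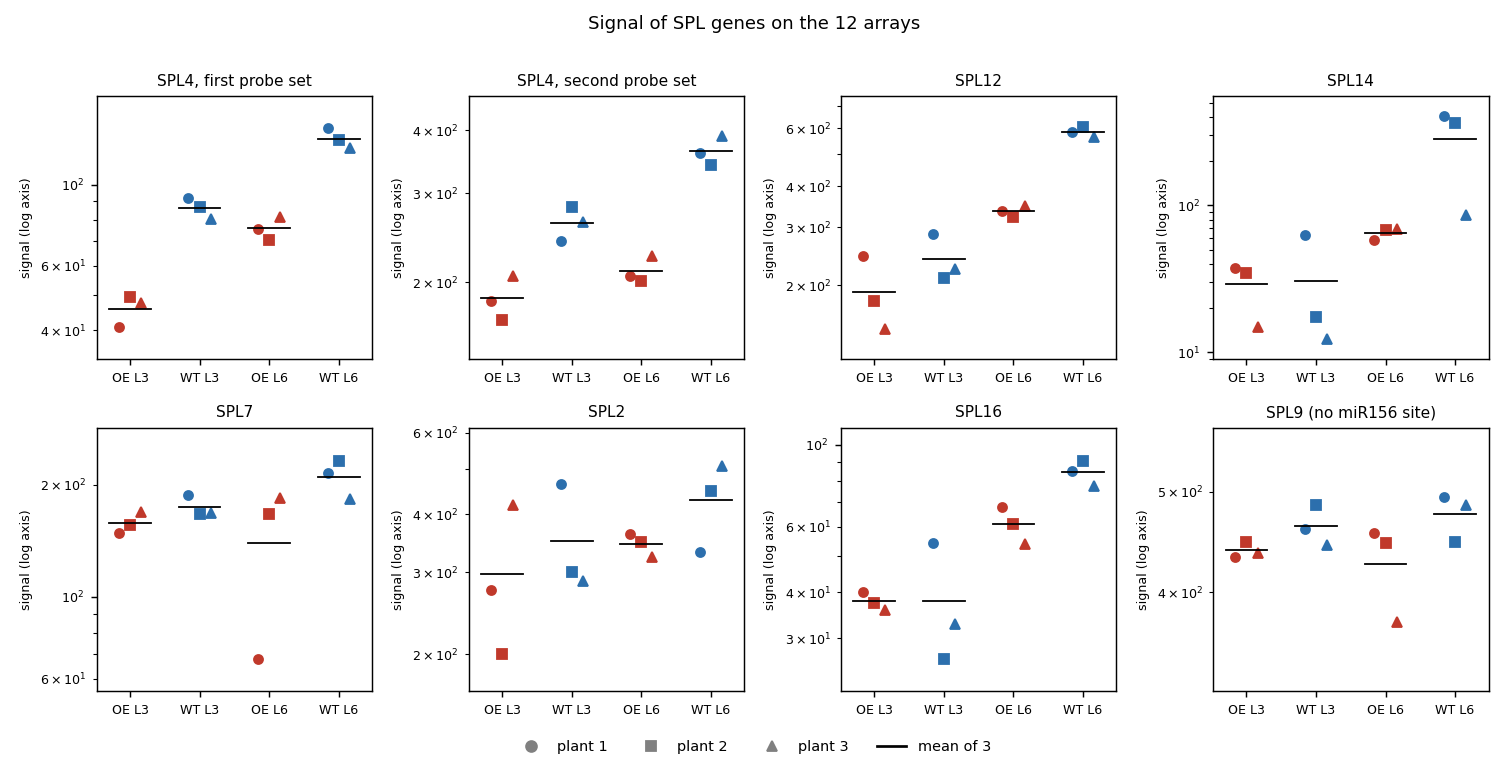
Signal (log axis) of 7 probe sets of SPL genes with a miR156 site, and of SPL9 without one, on the 12 arrays. Red points are OE and blue points WT, the shape gives the plant, and black lines are means of 3. Both SPL4 probe sets are lower in OE in each leaf, SPL12, SPL14 and SPL16 are apart in L6 only, and SPL9 overlaps in both leaves.

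Of the 26 genes called lower in OE, 24 were apart from WT in both leaves. Over all probe sets, called or not, 0.685% were lower and apart in both leaves. DREB1G, an AP2 transcription factor of the DREB1 group that acts in cold and drought responses, had the largest difference. It had 15.7, 18.5 and 108 in OE_L3 and 27.6, 20.1 and 17.1 in OE_L6, against 213, 276 and 194 in WT_L3 and 589, 103 and 190 in WT_L6. One OE_L3 array, of plant 3, reached 108, above the lowest WT_L6 array. The difference was -2.47 (SE 0.39, adjusted p = 0.0328), or -3.07 with a pseudocount of 1 and -1.65 with 64, and 19 of 32 other settings ended its call, plant means among them (adjusted p = 0.108).

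LOC4325216, a gene with no description in the table used here, was lower on every OE array than on every WT array. It was at 192 ± 14.8 in OE_L3 and 85.7 ± 38.3 in OE_L6, against 530 ± 50.8 in WT_L3 and 319 ± 54.0 in WT_L6 (SD, n = 3). The difference was -1.58 (SE 0.16, adjusted p = 0.00107), 3.00-fold lower, and its call held under all 32 other settings. LOC4345389 had nearly the same level in both leaves: 116, 110 and 116 in OE_L3 and 114, 125 and 117 in OE_L6, against 211, 191 and 169 in WT_L3 and 192, 216 and 187 in WT_L6. Its difference was -0.67 (SE 0.07, adjusted p = 0.000879), with -0.66 in L3 and -0.67 in L6, and its call also held under all 32.

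MADS56, a SOC1-like MADS-box transcription factor studied for flowering time under long days, was the flowering gene that changed. It had 670, 509 and 671 in OE_L3 and 581, 472 and 688 in OE_L6, against 762, 1087 and 1054 in WT_L3 and 1159, 1062 and 1135 in WT_L6. All 6 OE arrays were below all 6 WT arrays. The difference was -0.79 (SE 0.12, adjusted p = 0.0231), and it was lost with plant means (adjusted p = 0.232) and without OE plant 1, OE plant 2, WT plant 2 or WT plant 3. ALN, allantoinase of the ureide breakdown that frees nitrogen, was at 486 ± 74.0 in OE_L3 and 429 ± 48.0 in OE_L6, against 782 ± 57.9 in WT_L3 and 586 ± 54.4 in WT_L6. The difference was -0.56 (SE 0.09, adjusted p = 0.0305). Its call was lost in 16 of 32 other settings. Among them were plant means (adjusted p = 0.143) and leaving out OE plant 1, OE plant 2 or any 1 of the WT plants.

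Of the other lower genes that the naming rule took, LOC4346884 (-0.77), LOC4337500 (-0.74), LOC4336193 (-0.73) and LOC4326803 (-0.60) had all OE arrays below all WT arrays. LOC4336904 (-0.62), LOC4328273 (-0.61), LOC4348273 (-0.58) and LOC4349647 (-0.58) were apart within each leaf but not across leaves. These 8 had adjusted p of 0.00299 to 0.0479, and with plant means none of them kept its call. LOC4348273 lost it in 26 of 32 other settings and LOC4336193 in 20 of 32, both of them whichever plant was left out, and LOC4326803 lost it in 21 of 30. Outside the rule, chosen after their values were seen because they have names, were 2 more. NMCP1A, a nuclear matrix constituent protein of the nuclear envelope, was at 239 ± 18.3 in OE_L3 and 311 ± 6.04 in OE_L6, against 376 ± 29.8 in WT_L3 and 403 ± 19.4 in WT_L6 (-0.49, adjusted p = 0.00864). LSD1, a zinc finger gene named after an Arabidopsis regulator of cell death, was at 841 ± 19 in OE_L3 and 1064 ± 26.3 in OE_L6, against 1042 ± 72.5 in WT_L3 and 1401 ± 70.6 in WT_L6 (-0.35, adjusted p = 0.0328).

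The averages of 3 named genes came mostly from one leaf. MT1B, a type 1 metallothionein that binds metal ions, had 107, 137 and 203 in OE_L3 against 695, 934 and 647 in WT_L3, while L6 was at 33.1, 37.3 and 27.1 in OE and 34.1, 34.8 and 38.4 in WT. NAR2.2, a partner protein of high-affinity nitrate transporters, had 123, 160 and 169 in OE_L3 against 386, 399 and 431 in WT_L3, while L6 was at 48.3, 50.8 and 46.1 in OE and 54.1, 53 and 56.9 in WT. Rab25, a dehydrin that abscisic acid and drought induce, ran the other way, with 39.7, 42.0 and 37.5 in OE_L6 against 88.1, 78.3 and 75.7 in WT_L6, and 36.9, 37.7 and 32.4 in OE_L3 against 35.5, 36.0 and 28.6 in WT_L3. Their averages were -1.18 for MT1B (SE 0.13, adjusted p = 0.00254), -0.74 for NAR2.2 (SE 0.07, adjusted p = 0.000879) and -0.36 for rab25 (SE 0.06, adjusted p = 0.0252). The leaf difference of none of the 3 passed its test (adjusted p = 0.0696 for MT1B, 0.0646 for NAR2.2 and 0.103 for rab25). In a model with a single genotype term for both leaves, all 3 calls were lost. The call of rab25 was lost in 16 of 31 other settings, with plant means (adjusted p = 0.306) and without any 1 of 5 of the 6 plants among them.

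The higher probe sets had larger folds. No gene was listed for 55 of these 76, against 16 of the 43 lower and 34663 of all 57194 tested. LOC4331398 had 1167, 1149 and 1285 in OE_L3 and 326, 239 and 362 in OE_L6, against 14.8, 13.7 and 15.6 in WT_L3 and 12.2, 9.94 and 11.5 in WT_L6. Its WT signals were among the dim ones on the array and its OE signals were not. The difference was 4.43 (SE 0.09, adjusted p = 6.05e-10), and a second probe set of the gene gave 4.26 (adjusted p = 1.19e-09). Because the WT signals are dim, the size depends on the pseudocount: it was 5.45 with 1 and 3.15 with 64. LOC4340325 had 539, 341 and 314 in OE_L3 and 332, 234 and 239 in OE_L6, against 17, 19.8 and 18.5 in WT_L3 and 16.4, 22.2 and 21.7 in WT_L6, a difference of 3.26 (SE 0.13, adjusted p = 3.13e-07), which was 3.99 with a pseudocount of 1 and 2.21 with 64. In both genes the OE mean was higher in L3 than in L6, and for LOC4340325 the OE arrays of the 2 leaves overlapped.

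LOC4347708 had the highest signals of this group. It had 8849, 7683 and 7351 in OE_L3 and 1782, 1843 and 2765 in OE_L6, against 745, 1735 and 2946 in WT_L3 and 698, 772 and 823 in WT_L6. The WT_L3 arrays differed widely among themselves, and plant 1, the lowest, is the WT_L3 array with the most L6-like score. The difference was 1.88 (SE 0.26, adjusted p = 0.0117), 3.69-fold higher, and was lost with plant means (adjusted p = 0.128) and without any 1 of the OE plants or WT plant 2.

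LOC4335304 was at 323 ± 36.3 in OE_L3 and 381 ± 110 in OE_L6, against 110 ± 7.22 in WT_L3 and 121 ± 7.26 in WT_L6 (SD, n = 3), with a difference of 1.46 (SE 0.13, adjusted p = 0.000333) and 1.48 on a second probe set. LOC4326339 was at 98.2 ± 14.1 in OE_L3 and 90.9 ± 30.3 in OE_L6, against 28.5 ± 4.12 in WT_L3 and 23.0 ± 3.93 in WT_L6 (1.39, SE 0.12, adjusted p = 0.000318). LOC4351501 was at 190 ± 21.0 in OE_L3 and 185 ± 40.7 in OE_L6, against 72.7 ± 7.46 in WT_L3 and 89.4 ± 3.84 in WT_L6 (1.06, SE 0.10, adjusted p = 0.000563). In these 3 genes all OE arrays were above all WT arrays. Their calls held under every other setting that tested them, as did those of LOC4331398, LOC4340325, LOC4337401 (0.78) and LOC4336201 (0.67).

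Of the other higher genes that the rule took, LOC4335836 (1.23), LOC4325998 (1.08), LOC4350063 (1.04), LOC4331290 (0.64) and LOC4347977 (0.62) lost their calls with plant means. LOC4328903 (1.21) and LOC4338327 (0.57) kept them there and lost them with a single genotype term for both leaves, the first also without any 1 of the WT plants. LOC4328903 was uneven between leaves, at 2.19 in L3 and 0.22 in L6, and its average was 1.97 with a pseudocount of 1 and 0.61 with 64. The 1 higher gene with a name was BIO1, a bifunctional enzyme of biotin synthesis, which was named after its values were seen. It was at 272 ± 14.1 in OE_L3 and 259 ± 11.8 in OE_L6, against 221 ± 13.3 in WT_L3 and 176 ± 10.8 in WT_L6 (0.40, SE 0.06, adjusted p = 0.0231), with all 6 OE arrays above all 6 WT arrays.

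**Figure D3:**
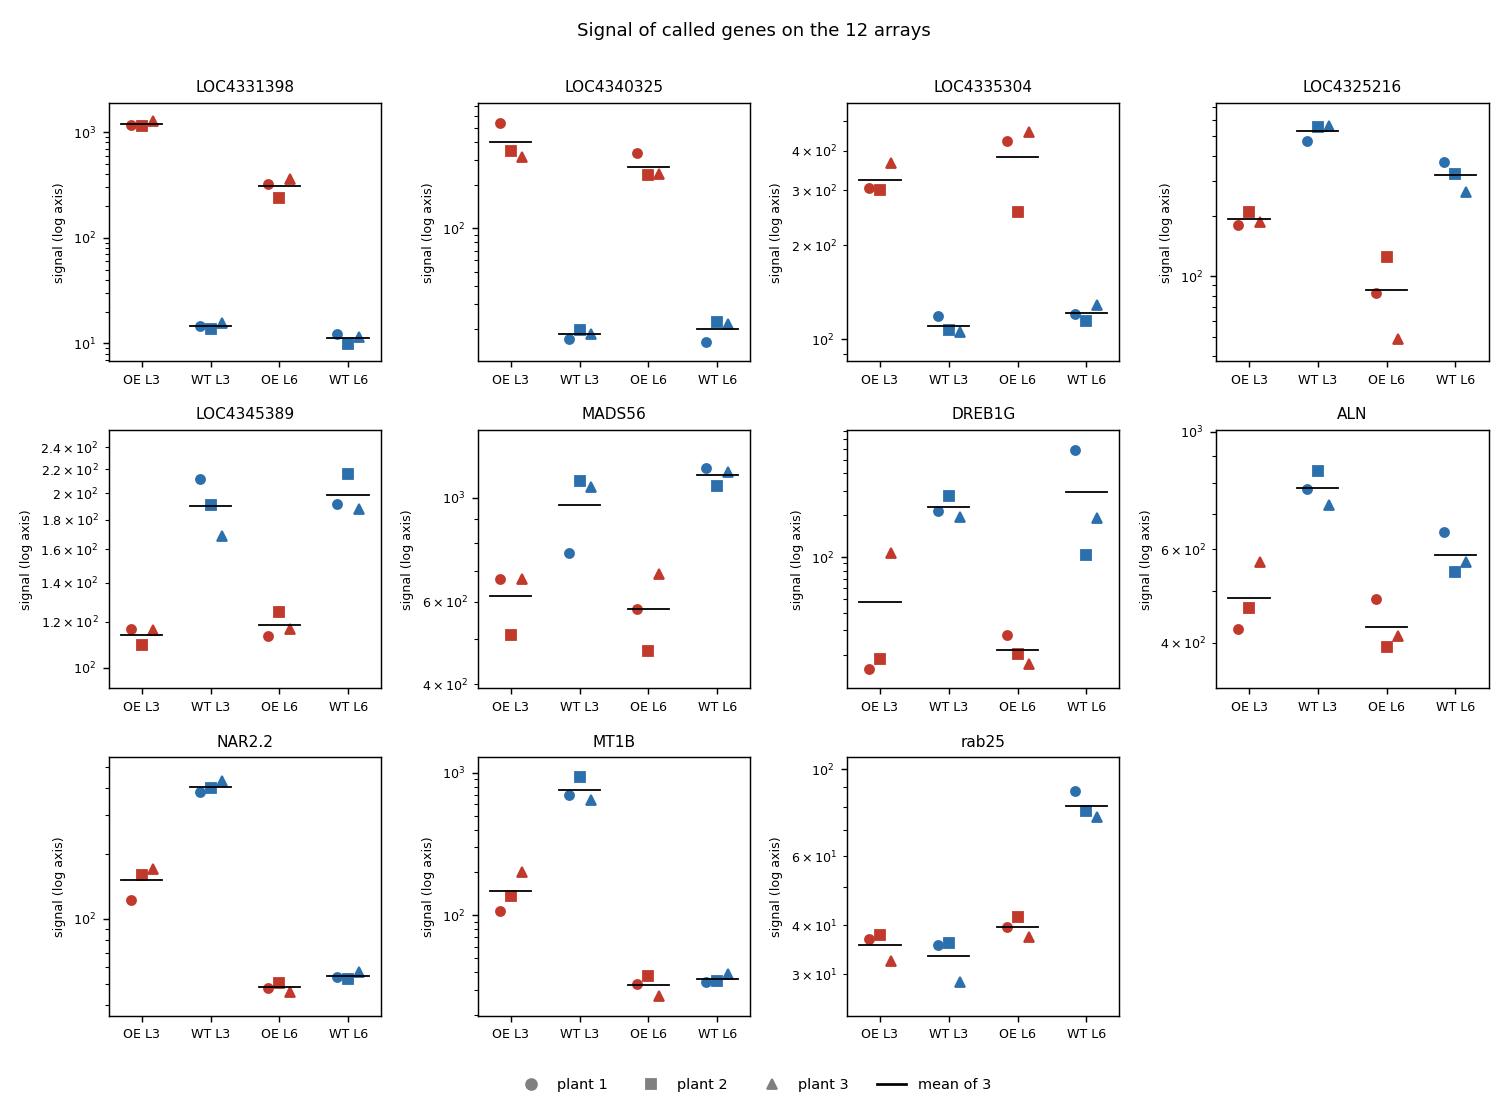
Signal (log axis) of 11 called genes on the 12 arrays, with OE in red, WT in blue, plants by shape and means of 3 as black lines. The upper row and LOC4345389, MADS56, DREB1G and ALN differ in both leaves, whereas NAR2.2 and MT1B are far apart in L3 and rab25 in L6.

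Among the higher probe sets without a named gene, 3 were taken by the rule. The one with the highest average had 1758, 1438 and 1047 in OE_L3 and 1463, 1334 and 1230 in OE_L6, against 38.6, 43.4 and 41.3 in WT_L3 and 36.4, 37.5 and 40.5 in WT_L6, a difference of 4.63 (SE 0.11, adjusted p = 1.7e-09), or 5.07 with a pseudocount of 1 and 3.78 with 64. The next was at 295 ± 29.8 in OE_L3 and 349 ± 23.9 in OE_L6, against 8.86 ± 1.63 in WT_L3 and 6.48 ± 1.33 in WT_L6 (3.83, adjusted p = 1.2e-10, or 5.24 with a pseudocount of 1 and 2.42 with 64). The third was at 3140 ± 77.8 in OE_L3 and 1867 ± 306 in OE_L6, against 744 ± 137 in WT_L3 and 69.4 ± 37.1 in WT_L6 (3.30, adjusted p = 4.22e-06). The highest differed by nearly the same amount in L3 (4.62) and L6 (4.65), and the third by less in L3 (2.07) than in L6 (4.54). Among the lower, 2 probe sets of one design had similar values. The first was at 46.6, 47.4 and 42.8 in OE_L3 and 51.6, 61.5 and 71.2 in OE_L6, against 79.5, 85.1 and 77.7 in WT_L3 and 256, 230 and 187 in WT_L6 (-1.14, adjusted p = 5.8e-05). The second gave -1.08 (adjusted p = 0.00113). The unnamed probe set with the lowest average gave -1.44 (adjusted p = 0.012), a call that was lost with plant means.

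The 25 gene lists of phase, hormone, metabolic and stress pathways together held 478 probe sets, of which 0 were called higher and 7 lower (1.46%), against 0.133% higher and 0.0752% lower over all probe sets. The lists were chosen with earlier results of these data known, so the counts describe them and test nothing. All their members name 1 gene, and of the 22436 such probe sets 21 were called higher and 27 lower. The 7 were the 2 SPL4 probe sets, MADS56, DREB1G, rab25, NAR2.2 and MT1B. At an unadjusted p under 0.05, limma gave 33 higher and 34 lower in the lists, against 3.97% and 4.75% of all probe sets. Among the 22436 with 1 gene, 1162 were higher and 992 lower at that p. In the list of abscisic acid and drought genes, 2 of 19 probe sets were called lower, 6 had an unadjusted p under 0.05 downward and 0 upward, and the median was -0.039. Both called members, DREB1G and rab25, lost their calls with plant means, and over all probe sets 0.0752% were called lower and 4.75% had such a p downward. In the nitrogen list 1 of 23 was called, with a median of -0.061, and in the metal list 1 of 51, with a median of 0.056. Of 39 MADS-box probe sets 1 was called and the median was -0.017.

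The other lists held no call, and their members with the smallest p are given with values only. The 4 probe sets of AP2-like genes, targets of the later-phase microRNA miR172, had a median of 0.15, with 0.18 for AP2-5 and 0.13 for AP2-1 (adjusted p = 0.702 and 0.743). Cytokinin response regulators had the second highest median of these lists, 0.17 over 11 probe sets, with OsRR2 at 0.34 (adjusted p = 0.0743) and OsRR9 at 0.33 (adjusted p = 0.368). OsRR2 was at 87.0 ± 11.4 in OE_L3 and 114 ± 6.2 in OE_L6, against 64 ± 4.18 in WT_L3 and 88.6 ± 2.80 in WT_L6, and the arrays did not overlap within either leaf. Pathogenesis-related genes had a median of 0.19, with 2 of 16 below 0 and 2 at an unadjusted p under 0.05. Their strongest members were the chitinases Cht11 at 0.73 (adjusted p = 0.545) and CH6 at 0.28 (adjusted p = 0.567).

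Among heat shock genes, HSFA2C, a heat stress transcription factor, had the highest difference of all list members, 1.33, without passing (adjusted p = 0.129). It had 161, 357 and 275 in OE_L3 and 102, 112 and 359 in OE_L6, against 85.0, 110 and 120 in WT_L3 and 52.9, 50.7 and 38.8 in WT_L6, so the arrays were apart within each leaf but the OE lines spread widely. The list's median was 0.0089 over 60 probe sets. The jasmonate list had a median of -0.012 over 31 probe sets. JAZ13, a JAZ repressor of jasmonate signalling, had -1.53 (SE 0.53, adjusted p = 0.46), and AOS, allene oxide synthase of jasmonate synthesis, -0.34 (adjusted p = 0.439).

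Medians of the remaining hormone, growth and leaf function lists lay between -0.091 and 0.073. Gibberellin genes had 0.029, with CYP701A19 at 0.34 and GAM1 at 0.23. Auxin genes had 0.044 over 57 probe sets, with OsPIN4, an auxin efflux carrier, at 0.23 (adjusted p = 0.16). Strigolactone and tillering genes had 0.036, with D3, an F-box protein of strigolactone signalling, at 0.29 (adjusted p = 0.266) and CFBP1 at -0.21. Cell cycle genes had 0.073 over 43 probe sets, with CYCD5-1 at 0.46 (adjusted p = 0.565). KNOX genes had 0.0048, with OSH1 at 0.09, and the plastochron gene GO had 0.06. Senescence genes had -0.091, with OSL2 at 0.40 (adjusted p = 0.131) and EP3A at -0.20. Photosynthesis genes had -0.011, with OsrcaA1, Rubisco activase, at 0.04 and RBCS1 at -0.03. Chlorophyll synthesis genes had 0.030, with PORB at -0.19 and GSA at -0.17. Flavonoid genes had -0.061 over 12 probe sets, which joined medians of 0.17 in L3 and -0.29 in L6. CHS, chalcone synthase, was at -0.27 on 1 of its several probe sets, and the list ran from -0.53 to 0.31.

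**Figure D4:**
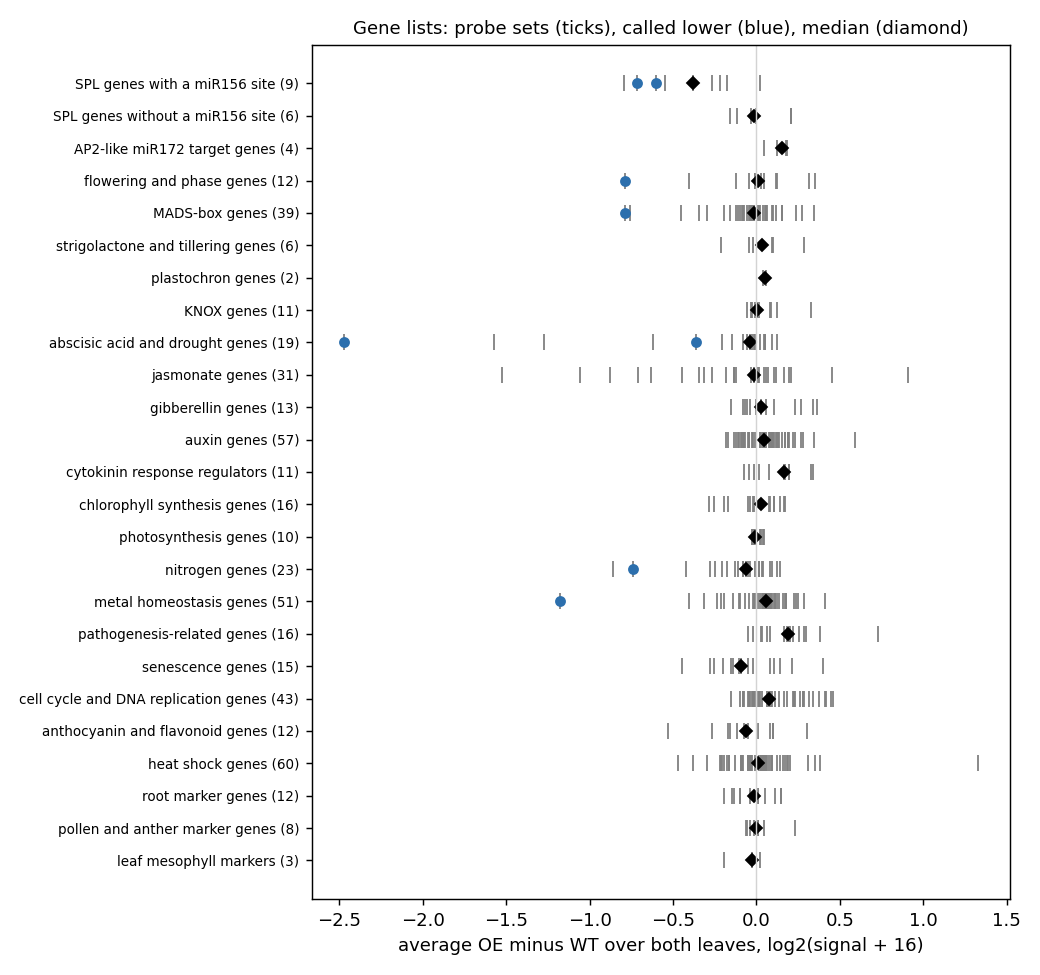
Average difference OE minus WT over both leaves (log2(signal + 16)) of every probe set of the 25 gene lists (grey ticks, number in brackets), with called probe sets as blue points and list medians as black diamonds. The list of SPL genes with a miR156 site has the lowest median, -0.38, and all called members lie below 0.

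No line was the farthest from WT throughout. Among the 76 higher probe sets, Md15 was the farthest from WT in L3 in 33, Md43 in 18 and Mh9 in 25, and in L6 the counts were 23, 19 and 34. The same line was farthest in both leaves in 11 probe sets for Md15, 7 for Md43 and 17 for Mh9. Among the 43 lower, the counts in L3 were 16, 12 and 15, and in L6 they were 12, 13 and 18. Leaves of the same OE plant deviated from their group means with correlations of 0.0993, 0.127 and 0.171, and leaves of the same WT plant with -0.211, -0.302 and -0.0366, so that the consensus correlation of the leaves of a plant was -0.067.

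By position, called genes were more frequent on chromosome 4 than on any other. Chromosomes are those of the NCBI gene table of assembly ASM3414082v1, and the count was made after the called genes had been seen. Of the 45 called genes, 13 lie on chromosome 4 (28.9%), which holds 8.76% of the genes measured. By probe set 14 of 1939 were called there (0.722%), 5 higher and 9 lower, against 34 of 20495 on all other chromosomes (0.166%). NAR2.2, ALN and 11 of the LOC genes make up the 13, among them LOC4335304, LOC4336201, LOC4337401, LOC4337500 and LOC4336193. LOC4336193, which was lower, and LOC4336201, which was higher, have 6 coding genes between them, NAR2.2 and LOC4336193 have 18, and LOC4337401 and ALN have 24. The contrast was smaller without the threshold of the calls: an unadjusted p under 0.05 was found in 11.1% of probe sets on chromosome 4 and 9.46% elsewhere, and arrays apart in both leaves in 2.37% and 1.72%. The share of called genes on chromosome 4 was 18.75% to 30.95% over the 32 other settings, and in each of them it held more called genes than any other chromosome. With plant means it held 4 of 16. What lies behind this was not tested.

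**Figure D5:**
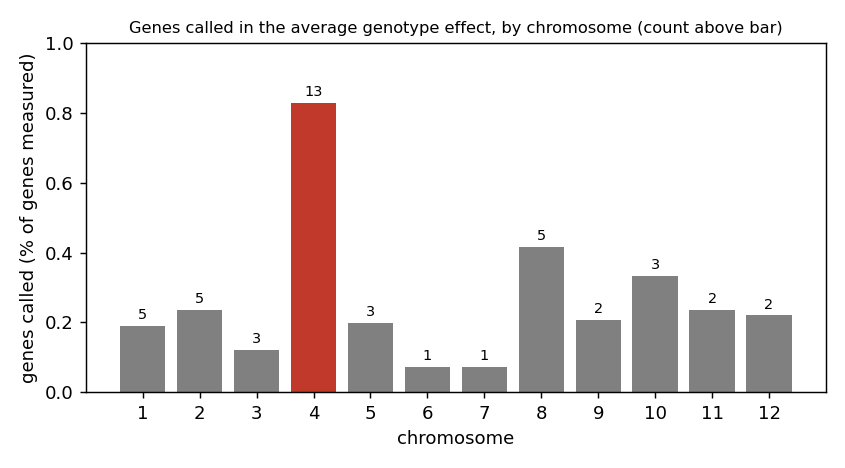
Percent of measured genes called in the average genotype effect on each of the 12 chromosomes, with the number of called genes above each bar and chromosome 4 in red. Chromosome 4 holds 13 called genes, against 1 to 5 on each of the others.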

How the data were processed

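Biotin-labelled cRNA from 6 µg of total RNA of each leaf was put on an Affymetrix rice array, per the labels. The deposited table holds signal intensity on a linear scale, 1 value per probe set and array. How the values were summarized or scaled is not stated in any label or header, and a scaling to equal totals would hide a shift of all transcripts at once. Groups, replicate numbers and lines came from the labels.

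Intensities were taken as log2(value + 16), with no further normalization and no filter on dim probe sets. Using limma 3.58.1 in R 4.3.3, 1 model was fitted to 4 group means with the plant as a random block (duplicateCorrelation, statmod 1.5.0) and eBayes with a trend, with 8 residual degrees of freedom. Contrasts were the mean of both OE minus WT differences, and the difference between them. P-values were two-sided and adjusted by Benjamini-Hochberg over 57194 probe sets and a threshold of 0.05. Tables and plots used Python 3.11.15, pandas 2.3.3 and matplotlib 3.10.9. The number of arrays limits the precision.

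The members, the gene lists and the tests were chosen with earlier results of these data known. Named genes were, among called probe sets with 1 gene and arrays apart in both leaves, up to 15 each way by size with 1 probe set per gene; up to 3 unnamed probe sets each way; all SPL genes; called list members, and otherwise the 2 members with the smallest p of a list; and probe sets called for a leaf difference. Genes were named from the platform annotation and the NCBI table of assembly ASM3414082v1, in which all 22436 gene IDs were found; 95 probe sets with several genes and 34663 with none stayed unnamed. No probe, promoter, protein or miRNA sequence was used here.

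The labels give L3 and L6 of a number the same line or plant, so the leaves are paired, whereas OE and WT of a number are different plants. On simulated data with 200 of 57194 probe sets changed, the average effect was recovered for 81% of 2-fold and 92% of 4-fold changes, with 5 false calls. The changed probe sets were drawn only from those above the median level. The simulated arrays were independent and normal, with the same variance of a probe set in all groups. The rates thus do not cover dim probe sets or the larger variance of L3. Alternatives were pseudocounts of 1 and 64, quantile and median normalization, filters at the 40th and 60th percentile, no block, plant means, the replicate number as a block, an additive model, a variance per leaf, no trend, a robust prior, 1 probe set per gene, and each plant or array left out. The counts by chromosome and of like leaf differences were added after seeing the data.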

Additional observations from a re-analysis of the deposited data

Results flagged for a closer look

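The genotype effect differed between leaves, by the test of the difference itself, for 6 probe sets that were also called in the average. For LOC4331398 the effect in L6 minus that in L3 was -1.75 on one probe set and -1.77 on the other (adjusted p = 0.0411 for both), and both leaves were far above WT. For 3 unnamed probe sets the OE leaves were lower in L6 and not in L3. The difference was -2.08 (adjusted p = 0.02) for one, with 32.1, 49.3 and 30.9 in OE_L6 against 182, 176 and 202 in WT_L6, -1.56 (adjusted p = 0.0411) for another and -1.62 (adjusted p = 0.0412) for the third. One more unnamed probe set ran the other way, with 2.38 (adjusted p = 0.0483). It had 18.2, 21.3 and 21.1 in OE_L3 against 118, 151 and 261 in WT_L3, and 10.8 to 13.3 in OE_L6 against 9.36 to 12.7 in WT_L6. For these 4 unnamed probe sets the average thus joins a difference in one leaf with nearly none in the other.

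Outside the tested probe sets, 2 reporter controls had signals in OE far above WT: the lowest OE array stood at 1775 for one and 2015 for the other, against highest WT arrays of 26.3 and 63.6. The files do not say which transcripts they read.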

How the results depend on the processing

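The count of 119 called probe sets stayed within 1.5 times under 11 of the 14 settings that keep all arrays. No called probe set turned its sign under any of the 32 settings that tested it. Only the pseudocounts, quantile and median normalization, and leaving out a plant or array could change a difference. The other settings leave it as it was, so its sign was fixed there. With the replicate number as a replicate block, OE and WT of a number being different plants, 176 were called (101 higher, 75 lower). Their same-numbered deviations correlated at 0.687, -0.649 and 0.757 in L3 and at 0.171, 0.417 and -0.0917 in L6. What same-numbered plants share beyond the number is not given by the labels and was not tested. With no replicate block for the leaves 108 were called. The count was 49 with plant means, 59 with the 60th percentile filter, 33 with 1 probe set per gene, 58 to 127 without 1 plant and 77 to 136 without 1 array. The share of higher calls moved with the filters, to 45 higher and 38 lower at the 40th percentile and 30 higher and 29 lower at the 60th. The 6 calls of a leaf difference became 0 with a pseudocount of 1, the 60th percentile filter, the replicate block or 1 probe set per gene, 1 with the 40th percentile filter, 2 with no trend, 0 to 5 without 1 plant and 0 to 8 without 1 array. The median of the SPL genes with a site was -0.27 to -0.50 with 1 plant or array left out. Of the 119, 38 (31 higher, 7 lower) were called under all settings but the filters and 1 probe set per gene, and 53 without any 1 plant. Of 44 named called probe sets, 16 kept their call under every setting that tested them, and 21 lost it with plant means. The filters and 1 probe set per gene left some of the 16 untested. The table gives no background or detection call, so which signals under 50 lie above background is unknown.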
